A study of Mus musculus with 8 samples.

Results

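A set of 10 genes that mark haematopoietic stem and progenitor cells were followed in cultured mouse bone marrow cells of the genotype Runx1 Δ/Δ, with and without knockdown of Pcgf1. The genes are the surface markers Cd34, Procr and Slamf1, the transcription factor genes Mecom, Hlf, Prdm16 and Zfp521, the angiopoietin receptor Tek and its ligand Angpt1, and the catenin-like gene Ctnnal1. They were chosen by name as markers of these cells, with earlier results of these data known. Every array probe whose RefSeq accession maps to 1 of the 10 symbols was used. These were 15 probes out of 24375 with a symbol, and 10 genes out of 17016. Of the 10 genes 9 were measured, meaning that 1 or more of their probes stood well above background throughout the 4 arrays of either group. The exception was Mecom.

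Each group held 4 cultures, 1 from each of 4 mice. In the cultures with the Pcgf1 shRNA a retrovirus delivered a hairpin against Pcgf1, which encodes a subunit of the Polycomb complex PRC1.1, and in those with the control shRNA it delivered a control hairpin. Both groups carry the Runx1 Δ/Δ genotype on a mixed C57Bl/6 and 129SvJ background, so neither shows these genes in cells with intact Runx1. Lineage-depleted marrow had been grown for 2 days with SCF, Flt3 ligand, IL-11 and IL-3 before transduction, and puromycin was then applied for 36 h to keep transduced cells. With 1 hairpin against Pcgf1, effects of the hairpin other than on Pcgf1 cannot be told apart from those of the knockdown. The labels do not state the age and sex of the mice or the means by which Runx1 was deleted.

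Haematopoietic stem cells and early progenitors are recognised by surface proteins such as CD34, EPCR (the product of Procr) and CD150 (the product of Slamf1), and their identity rests on transcription factors such as EVI1 (a product of Mecom), HLF and PRDM16. The angiopoietin receptor TIE2, encoded by Tek, binds angiopoietin-1 and is known for its part in stem cell quiescence. In mice CD34 is low on the most primitive adult stem cells and high on more advanced progenitors, which still give rise to all myeloid lineages. Several of these genes are also active outside the stem cell, for example Cd34, Procr and Tek in endothelium and Slamf1 in megakaryocytic and lymphoid cells.

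The promoter windows of 3 of these genes are printed because they show how unlike the marked genes are at their start sites, in particular in CpG dinucleotides, which the PRC1.1 subunit KDM2B is known to bind when unmethylated. Cd34 and Ctnnal1 were higher with the Pcgf1 shRNA in all 4 mice and Procr was lower in all 4. The Procr change was only −0.04 and −0.12 on the log2 scale in mice 1 and 4, and it passed an adjusted p of 0.05 in no fit. Each window holds the 250 bases before and the 50 bases after an annotated start (RefSeq, GRCm38.p6). For Ctnnal1, Procr, Prdm16 and Tek that start lies inside the span of the gene given below. The windows are printed 5′ to 3′ on the strand of the gene, with CpG dinucleotides in capitals.
Cd34 (chr1:194938571-194938870, plus strand): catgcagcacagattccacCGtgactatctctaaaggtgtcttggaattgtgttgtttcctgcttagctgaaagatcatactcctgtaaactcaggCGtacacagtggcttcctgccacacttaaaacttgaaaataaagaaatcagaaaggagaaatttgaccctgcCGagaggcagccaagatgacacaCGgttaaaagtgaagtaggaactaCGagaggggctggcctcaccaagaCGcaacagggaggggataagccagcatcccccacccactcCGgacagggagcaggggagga
Ctnnal1 (chr4:56865162-56865461, minus strand): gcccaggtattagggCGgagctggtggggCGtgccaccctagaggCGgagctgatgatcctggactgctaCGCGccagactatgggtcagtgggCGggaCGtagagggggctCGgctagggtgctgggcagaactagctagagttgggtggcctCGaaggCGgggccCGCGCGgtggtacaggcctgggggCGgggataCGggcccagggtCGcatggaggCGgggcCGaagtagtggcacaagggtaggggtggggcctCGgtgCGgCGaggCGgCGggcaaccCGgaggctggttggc
Procr (chr2:155750967-155751266, plus strand): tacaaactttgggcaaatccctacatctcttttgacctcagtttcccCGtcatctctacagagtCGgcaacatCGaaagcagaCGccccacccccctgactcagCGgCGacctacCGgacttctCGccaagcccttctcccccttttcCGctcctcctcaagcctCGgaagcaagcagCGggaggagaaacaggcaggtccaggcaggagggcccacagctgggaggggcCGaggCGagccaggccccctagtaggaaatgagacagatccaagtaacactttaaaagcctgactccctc
The Cd34 window holds 7 CpG, the median over all 32851 windows of the table, the Ctnnal1 window 24 and the Procr window 13. Whether the CpG content of a window goes with the change of its gene was not tested. Windows were found for 8 of the 10 genes, and for Angpt1 and Zfp521 none is shown. Among the other windows Hlf held 30 CpG, Prdm16 24, the upstream start of Mecom 19 and its internal start 9, Slamf1 4 and Tek 3. The RUNX core TGTGGT or TGCGGT, searched on both strands, was found in 0 of the 9 windows of the markers, against 22.4% of all windows. The GATA core AGATAA or TGATAA, also on both strands, was found once each in the windows of Slamf1, Tek and the upstream start of Mecom, against 18.6% of all windows that hold it. A match or its absence describes the letters of the window only.

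All signals below are on 1 scale. A log2 signal is the log2 of the processed intensity of the probe minus the log2 of the 75th percentile of its array, so 0 stands for that percentile, and a log2 change is the mean log2 signal with the Pcgf1 shRNA minus the mean with the control shRNA. Levels of different probes are not compared. The 75th percentile lay between 519 and 854 intensity units on the 8 arrays, 54.8% to 62.0% of non-control spots on an array passed the background test, and the lowest signals called well above background lay between −5.94 and −5.22. Pcgf1 itself, on chromosome 6 (83077552 to 83080855, GRCm38.p6), was reduced to 39.0% of its control level (log2 change −1.36, SE 0.12, adjusted p 0.0197; lower in 4 of 4 mice). Leaving out mouse 1, 2 or 3 kept the size of that change (−1.34, −1.34 and −1.38) but lost its call without a block (adjusted p 0.113, 0.352 and 0.0904). Both arrays of mouse 4 stood apart on the first principal component, with scores of 38.3 and 44.8, whereas the remaining 6 arrays scored −30.1 to 2.95. The labelled cell type was checked against Kit, Cd34, Ly6a, Flt3, Gata2 and Myb, and all 6 were well above background on 8 of 8 arrays.

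Of the 9 measured markers, Cd34 and Zfp521 rose and 7 did not pass an adjusted p of 0.05 in the limma fit without a block. Among all 17301 genes tested, 0.763% passed (0.595% higher and 0.168% lower). The 17301 include entries without a gene symbol, which the markers all have. In the mouse-blocked fit, which compares the hairpins within each animal, Ctnnal1 rose as well, so that 3 of 9 passed, against 5.32% of all genes (2.91% higher and 2.42% lower). No marker fell in either fit. Because the markers were chosen with earlier results of these data known, these shares describe them and are not independent evidence. The values by mouse are plotted for each gene.

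**Figure D1:**
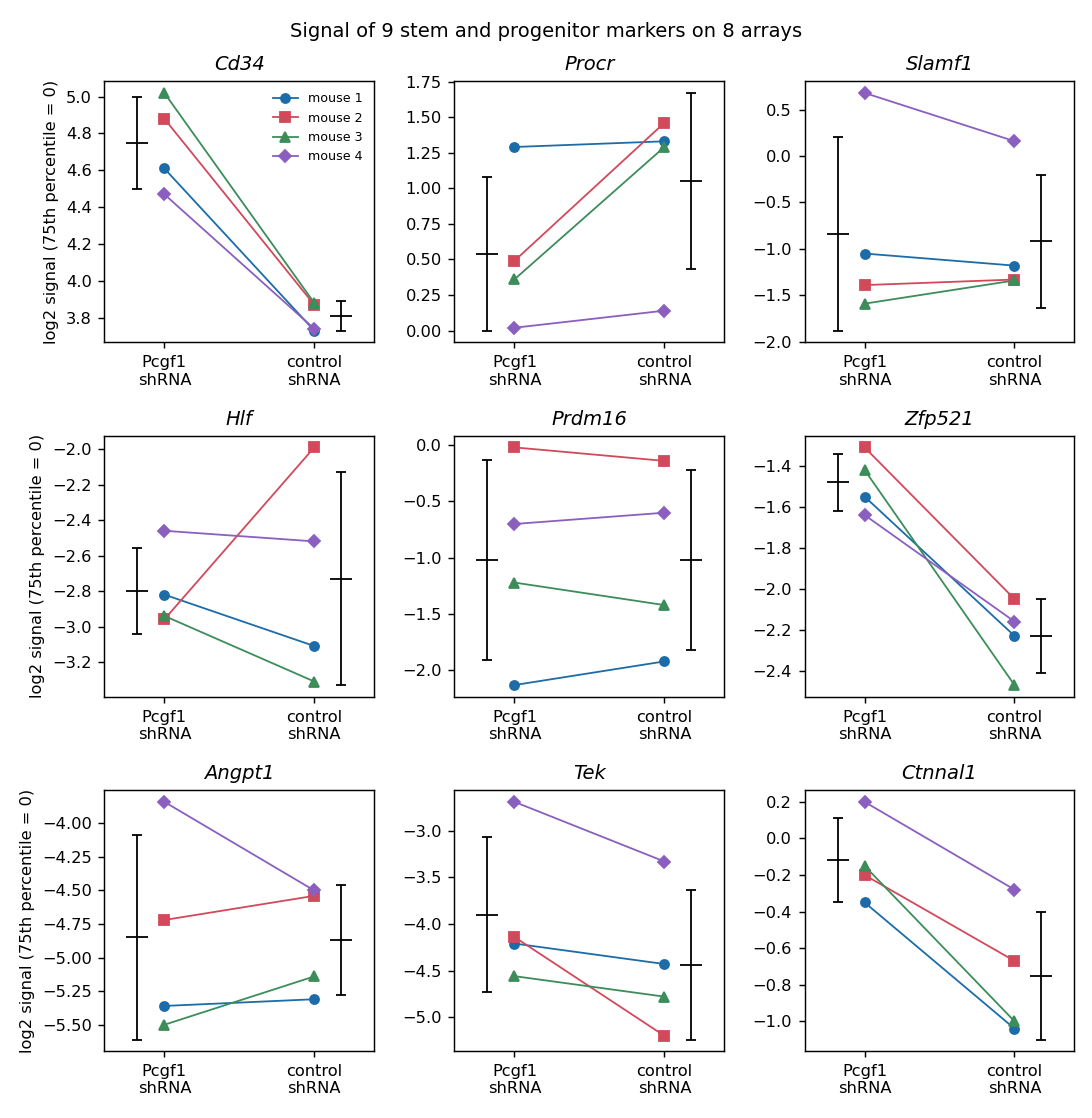
Log2 signal (y axis, 75th percentile of the array = 0) of the 9 measured markers in cultures with the Pcgf1 shRNA and with the control shRNA (x axis); each line joins the cultures of 1 mouse, and black bars are the mean ± SD of 4 arrays. The lines of Cd34, Zfp521, Ctnnal1 and Tek are higher with the Pcgf1 shRNA in all 4 mice. Tek was measured only through its arrays with the Pcgf1 shRNA. The lines of Procr are lower in all 4 mice. Those of Slamf1 and Tek set mouse 4 above the others, and those of Prdm16 are nearly level while the mice lie far apart.

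Cd34 encodes a heavily glycosylated sialomucin of progenitors and vessel walls. It lies on chromosome 1 (194938821 to 194961292, GRCm38.p6) and has 1 probe, well above background on all 8 arrays. Its log2 signal was 4.61, 4.88, 5.02 and 4.47 with the Pcgf1 shRNA in mice 1 to 4, against 3.73, 3.87, 3.88 and 3.74 with the control shRNA. The groups did not overlap, and the lowest value with the Pcgf1 shRNA lay 0.59 above the highest with the control shRNA. The spread between mice was wider with the Pcgf1 shRNA (SD 0.25) than with the control shRNA (SD 0.08), and that difference was not tested. Cd34 rose 1.92-fold, a log2 change of 0.94 (SE 0.13, 95% interval 0.65 to 1.23) with an adjusted p of 0.0251 (0.0149 in the mouse-blocked fit). Within the mice the change was 0.88, 1.01, 1.14 and 0.72, and within the slides, which are also the scan batches, it was 0.95 for mice 1 and 2 and 0.93 for mice 3 and 4. The size of the rise did not rest on 1 animal. Leaving out both arrays of mouse 1, 2 or 3 gave changes of 0.96, 0.92 and 0.87. The call without a block was lost each time (adjusted p 0.159, 0.352 and 0.175). In those fits 1, 0 and 0 of all genes tested passed. Leaving out mouse 4 gave 1.01 and kept the call (adjusted p 0.0309). In the mouse-blocked fit the call was lost without mouse 2 alone (adjusted p 0.0920).

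Procr encodes the endothelial protein C receptor, whose presence is used to isolate long-term stem cells. Its probe for the gene on chromosome 2 (155751125 to 155755478) passed the background test on all 8 arrays. Its log2 signal was 1.29, 0.49, 0.36 and 0.02 with the Pcgf1 shRNA in mice 1 to 4, against 1.33, 1.46, 1.29 and 0.14 with the control shRNA. Mouse 4 was low with either hairpin, and the culture of mouse 1 with the Pcgf1 shRNA was as high as its control, so the groups overlapped. The signal was lower with the Pcgf1 shRNA in 4 of 4 mice, by 0.97 and 0.93 on the log2 scale in mice 2 and 3 but by only 0.04 and 0.12 in mice 1 and 4. The mean log2 change of −0.51 (SE 0.35) did not pass (adjusted p 0.616, 0.181 in the mouse-blocked fit), and its 95% interval with the block was −0.98 to −0.05 before adjustment for the number of genes. On the slide of mice 1 and 2 the change averaged −0.50, and on that of mice 3 and 4 it averaged −0.53. The mice thus fell apart, with 2 near no change and the other 2 near a loss of 1 log2 unit.

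Slamf1 encodes CD150, a self-binding receptor of the SLAM family that is kept on stem cells and lost on most progenitors. Its gene lies on chromosome 1 (171767131 to 171801184). The brighter of its 2 probes read −1.05, −1.39, −1.59 and 0.68 with the Pcgf1 shRNA in mice 1 to 4, against −1.18, −1.33, −1.34 and 0.16 with the control shRNA. Mouse 4 was the highest in both groups, by 2.02 and 1.44 over the mean of the other mice in the same group. The hairpins differed far less than the mice, with changes of 0.13, −0.06, −0.25 and 0.52 in mice 1 to 4. The mean log2 change was 0.09 (SE 0.54, adjusted p 0.969); in the mouse-blocked fit the 95% interval narrowed to −0.24 to 0.42, and leaving out mouse 4 turned the change to −0.06. The dimmer probe, well above background on 1 of 4 arrays with the Pcgf1 shRNA and on 2 of 4 with the control shRNA, also read highest in mouse 4, at −4.02 and −4.35.

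Among the transcription factor genes, Zfp521 encodes a zinc finger protein that restrains lineage commitment and binds the early B cell factor EBF1. Its 1 probe was well above background on all 8 arrays and read −1.55, −1.31, −1.42 and −1.64 with the Pcgf1 shRNA in mice 1 to 4, against −2.23, −2.05, −2.47 and −2.16 with the control shRNA. The groups did not overlap, with a gap of 0.41 between them, and the spread between mice was small in both groups (SD 0.14 and 0.18). Zfp521 rose 1.68-fold, a log2 change of 0.74 (SE 0.12, 95% interval 0.48 to 1.01) with an adjusted p of 0.0354 (0.0226 in the mouse-blocked fit). The rise was 0.68, 0.73, 1.05 and 0.52 in mice 1 to 4, largest in mouse 3 and smallest in mouse 4, the same extremes as for Cd34. Within the slides it was 0.71 for mice 1 and 2 and 0.78 for mice 3 and 4. Leaving out mouse 1, 2 or 3 gave 0.77, 0.75 and 0.64 with adjusted p values of 0.191, 0.352 and 0.238 without a block, and without mouse 4 it was 0.82 with 0.0396. In the mouse-blocked fit the values without mouse 1, 2, 3 and 4 were 0.0658, 0.115, 0.0442 and 0.0517. Normexp background correction, which adds an offset to dim signals, gave a smaller change of 0.51 (adjusted p 0.0727).

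Prdm16 encodes a PR domain zinc finger protein needed to maintain stem cells. Its 1 probe, for the gene on chromosome 4 (154316122 to 154637360), was well above background on all 8 arrays. The signal was −2.13, −0.02, −1.22 and −0.70 with the Pcgf1 shRNA in mice 1 to 4, against −1.92, −0.14, −1.42 and −0.60 with the control shRNA. The order of the mice was the same in both groups, mouse 2 highest, then mouse 4, mouse 3 and mouse 1. Within a mouse the hairpins differed by at most 0.21 on the log2 scale (−0.21, 0.12, 0.20 and −0.10), while the mice of a group had an SD of 0.89 and 0.80. The mean log2 change was 0.00 (SE 0.51 without a block, 0.09 with it), and in the mouse-blocked fit the 95% interval was −0.23 to 0.23 (adjusted p 0.996). Without a block, weighting the arrays by their quality moved the change to 0.77 (adjusted p 0.376).

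Hlf encodes a PAR bZIP factor of stem cells, on chromosome 11 (90336535 to 90390917). Its 1 probe was well above background on all 8 arrays and read −2.82, −2.96, −2.94 and −2.46 with the Pcgf1 shRNA in mice 1 to 4, against −3.11, −1.99, −3.31 and −2.52 with the control shRNA. The control culture of mouse 2 was the highest of the 8. The change was 0.29, 0.36 and 0.06 in mice 1, 3 and 4 and −0.97 in mouse 2, so that the mean of −0.06 (SE 0.28, adjusted p 0.956, 0.899 in the mouse-blocked fit) had the sign of 1 mouse of 4. Without mouse 2 it was 0.24 (adjusted p 0.436 in the mouse-blocked fit).

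Mecom, on chromosome 3 (29951296 to 30509759), encodes EVI1 and, from its upstream start, MDS1-EVI1, and is the closest relative of Prdm16. The array has a probe for an accession of each form. The MDS1 form was well above background on 0 of 8 arrays, with log2 signals of −7.74 to −6.92 with the Pcgf1 shRNA and −7.93 to −7.17 with the control shRNA. The EVI1 form was well above background on 0 of 4 arrays with the Pcgf1 shRNA and on 1 of 4 with the control shRNA, that of mouse 3, at −5.17. No change is given for Mecom, since neither probe passed the background filter.

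Tek encodes the receptor tyrosine kinase TIE2 on chromosome 4 (94739086 to 94874976). Its 1 probe was dim, well above background on 4 of 4 arrays with the Pcgf1 shRNA and on 3 of 4 with the control shRNA. The probe thus passed the background filter only through the arrays with the Pcgf1 shRNA, the group where it read higher. It read −4.21, −4.14, −4.56 and −2.69 with the Pcgf1 shRNA in mice 1 to 4, against −4.43, −5.20, −4.78 and −3.33 with the control shRNA, of which that of mouse 2 was not well above background. As with Slamf1, mouse 4 was the highest in both groups. The signal was higher with the Pcgf1 shRNA in 4 of 4 mice, by 0.22, 1.06, 0.21 and 0.64, and the largest difference was measured against the value that was not well above background. The mean log2 change was 0.54 (SE 0.49) and did not pass in either fit (adjusted p 0.719, 0.114 in the mouse-blocked fit, where the 95% interval was 0.15 to 0.92 before adjustment). The measured size depended on the background step, since normexp correction gave 0.06.

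Angpt1 encodes angiopoietin-1, the ligand of TIE2, on chromosome 15 (42424667 to 42676977). The brighter of its 2 probes was measured because it was well above background on 4 of 4 control arrays, as it was on 2 of 4 with the Pcgf1 shRNA. It read −5.36, −4.72, −5.50 and −3.84 with the Pcgf1 shRNA in mice 1 to 4, against −5.31, −4.54, −5.14 and −4.50 with the control shRNA. The change was −0.05, −0.18, −0.37 and 0.66 in the 4 mice, higher in mouse 4 alone, and the mean was 0.02 (SE 0.37, adjusted p 0.993). Without mouse 4 the change was −0.20 (adjusted p 0.235 in the mouse-blocked fit). The other probe was well above background in mouse 4 only, with either hairpin, at −4.34 and −4.52.

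Ctnnal1 encodes alpha-catulin, a relative of alpha-catenin whose activity marks long-term stem cells in a reporter mouse. The gene lies on chromosome 4 (56810935 to 56865375) and has 3 probes. The brightest read −0.35, −0.20, −0.15 and 0.20 with the Pcgf1 shRNA in mice 1 to 4, against −1.04, −0.67, −1.0 and −0.28 with the control shRNA. The groups overlapped only because the control culture of mouse 4, at −0.28, lay above the culture of mouse 1 with the Pcgf1 shRNA, at −0.35. Within the mice the signal was higher by 0.69, 0.47, 0.85 and 0.48. The 1.54-fold change (log2 0.62, SE 0.19) did not pass without a block (adjusted p 0.235), and it passed in the mouse-blocked fit (SE 0.09, 95% interval 0.40 to 0.85, adjusted p 0.0262). It also passed with arrays weighted by quality and no block (0.66, adjusted p 0.0151). Within the slides the change was 0.58 and 0.66. Leaving out any 1 mouse kept it between 0.55 and 0.67 but lost the call with the block each time (adjusted p 0.0605 to 0.111).

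The 3 Ctnnal1 probes gave nearly the same change, 0.62 on the brightest and 0.66 and 0.69 on the others, each higher in 4 of 4 mice. On the second probe the log2 signals ran from −4.02 to −3.34 with the Pcgf1 shRNA, against −4.47 to −4.10 with the control shRNA, and on the third from −4.52 to −3.85 with the Pcgf1 shRNA, against −5.17 to −4.57 with the control shRNA, where the control array of mouse 2 was not well above background. On these probes the groups did not overlap, but the third passed the background filter only through the arrays with the Pcgf1 shRNA, where it read higher. The position of each probe in the transcript was not used here.

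**Figure D2:**
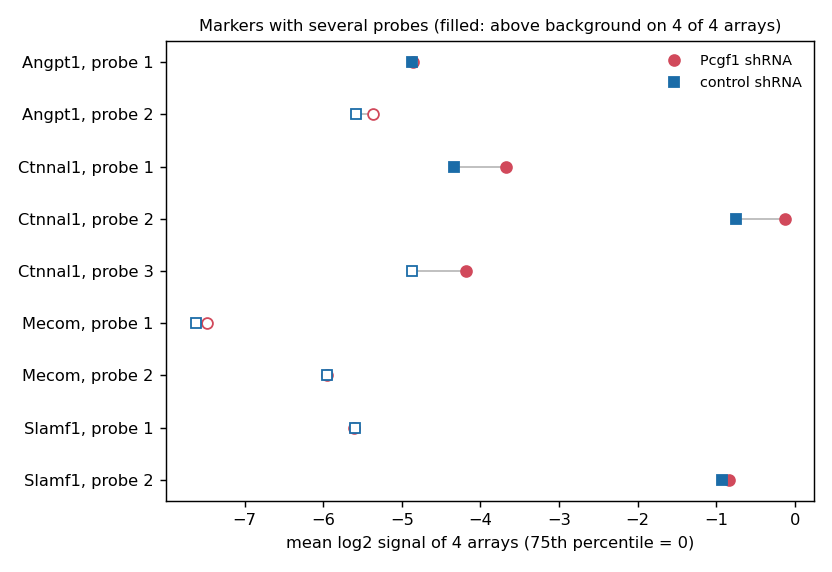
Mean log2 signal of 4 arrays (x axis, 75th percentile of the array = 0) with the Pcgf1 shRNA (circles) and the control shRNA (squares) for each probe of the 4 markers with several probes; filled symbols are well above background on 4 of 4 arrays of the group. The 3 Ctnnal1 probes are displaced to the right by 0.62 to 0.69 with the Pcgf1 shRNA, while both Mecom probes lie at the dim end and are open. The third Ctnnal1 probe is open for the control shRNA.

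The pairing by animal had unequal weight for these genes. For Prdm16, Slamf1 and Tek the SE fell to 0.09, 0.13 and 0.16 in the mouse-blocked fit, against 0.51, 0.54 and 0.49 without the block. For Cd34 and Zfp521 the SE was 0.09 and 0.10 with the block and 0.13 and 0.12 without it. The intervals of both fits are plotted for all 9 measured markers.

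**Figure D3:**
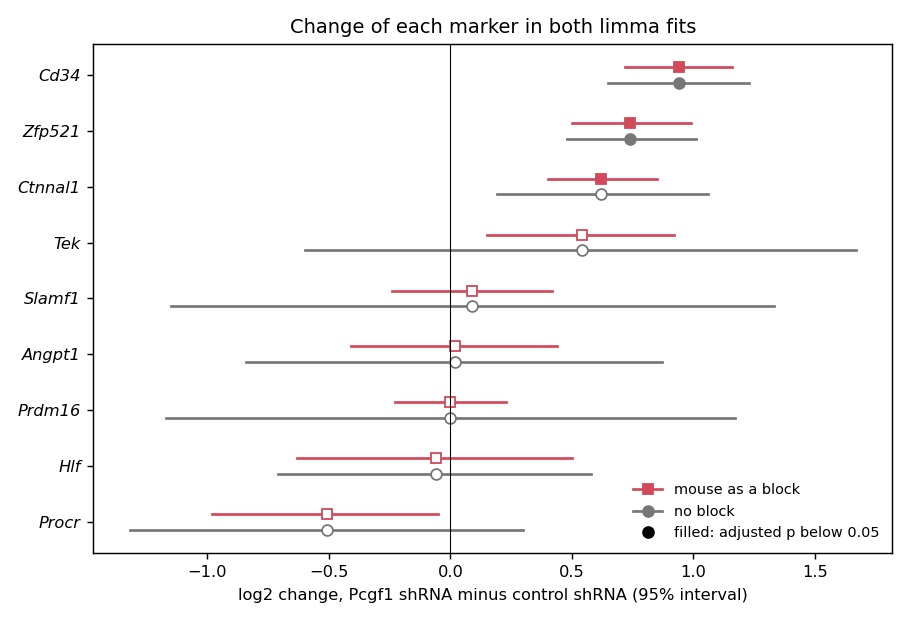
Log2 change, Pcgf1 shRNA minus control shRNA (x axis), of the 9 measured markers, with 95% intervals of the limma fits with mouse as a block (squares) and without a block (circles); filled symbols passed an adjusted p of 0.05. Cd34 and Zfp521 are filled in both fits and Ctnnal1 with the block alone; the intervals of Slamf1, Angpt1, Prdm16 and Hlf include 0 in both.

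In mouse 4, Slamf1 and Tek were high and Procr was low on both arrays, and the summed signal of megakaryocyte markers was high there too. Angpt1 was high in mouse 4 with the Pcgf1 shRNA (−3.84). With the control shRNA it was nearly level in mouse 4 (−4.50) and mouse 2 (−4.54). The summed linear signal of 8 megakaryocyte markers, relative to the 75th percentile, was 98.6, 72.3, 50.9 and 179 with the Pcgf1 shRNA in mice 1 to 4, against 85.4, 85.3, 80.8 and 160 with the control shRNA. All 8 markers were measured, and 0 of 8 passed in either fit between the hairpins. The sums of other cell types were also extreme in mouse 4. Its endothelial sum was the highest of each group (3.42 with the Pcgf1 shRNA and 3.17 with the control shRNA), as was its erythroid sum (43.9 and 70.6 for the same hairpins). Its sums were the lowest of each group for neutrophils (10.7 with the Pcgf1 shRNA and 83.4 with the control shRNA), granulocyte and monocyte progenitors (664 and 688) and monocytes (48.3 and 49.0). In bulk RNA more cells of a type and more RNA per cell cannot be told apart. The part of any of these cell types in the Slamf1, Tek, Angpt1 and Procr values was not tested.

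**Figure D4:**
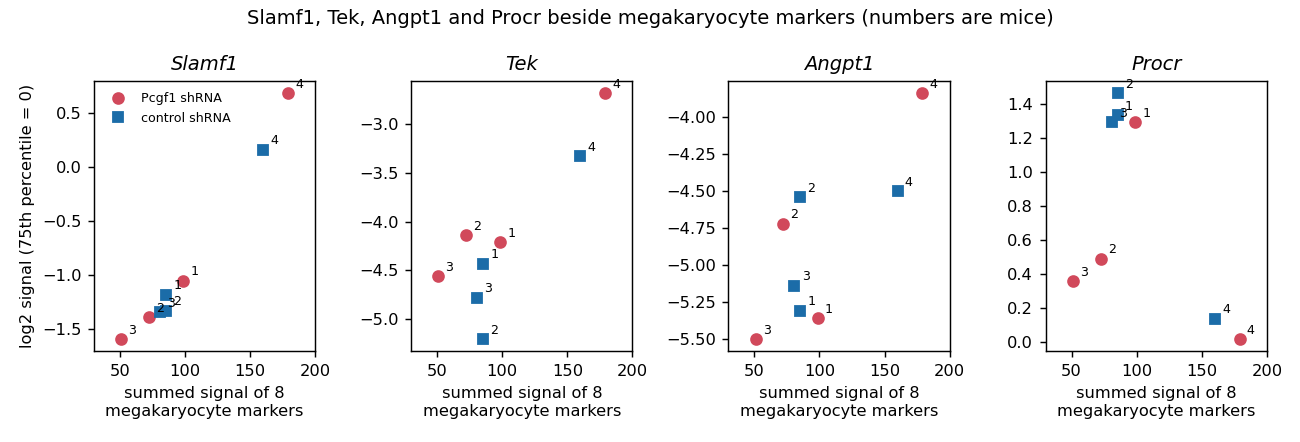
Log2 signal of Slamf1, Tek, Angpt1 and Procr (y axes, 75th percentile of the array = 0) against the summed linear signal of 8 megakaryocyte markers (x axis) on the 8 arrays, with the Pcgf1 shRNA (circles) and the control shRNA (squares), numbered by mouse. The arrays of mouse 4, at 179 and 160 on the x axis, are the highest for Slamf1, Tek and Angpt1 and the lowest for Procr. For Angpt1 the control array of mouse 4 is nearly level with that of mouse 2.

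Markers of other cell types that share these genes were set beside them. Of 9 endothelial markers 5 were measured, while Cdh5, Emcn, Sox17 and Cldn5 did not pass the background filter, and the summed signal of the 5 was 2.29 to 3.42 with the Pcgf1 shRNA and 2.10 to 3.17 with the control shRNA. Of the 5, Pecam1 (log2 change 0.51, adjusted p 0.0313) and Tie1 (0.36, 0.0489) rose in the mouse-blocked fit, and 0 passed without a block. Of 8 stromal markers Col1a2 and Pdgfrb were measured, of which Pdgfrb rose in the mouse-blocked fit (log2 change 0.69, adjusted p 0.0208), and the sum was 0.621 to 0.835 with the Pcgf1 shRNA and 0.554 to 0.708 with the control shRNA. The summed signal of 7 neutrophil markers was lower, 10.7 to 43.2 with the Pcgf1 shRNA against 83.4 to 231 with the control shRNA, in the same cultures in which Cd34 and Zfp521 rose. Of these 7 genes 2 fell without a block, and 6 fell and 1 rose in the mouse-blocked fit. Ngp and Ltf, which are among the 6 and of which Ngp is among the 2, were well above background on 0 of 4 arrays with the Pcgf1 shRNA and passed the filter only through the control arrays. All 6 measured erythroid markers were lower (median log2 change −0.95), and Ermap (−1.53, adjusted p 0.0310) and Klf1 (−1.05, adjusted p 0.0483) fell in the mouse-blocked fit alone. Of 7 monocyte markers 6 were lower (median −0.52), and Ccr2 fell in that fit alone (−1.21, adjusted p 0.0335). Among the 6, Cx3cr1 was well above background on 2 of 4 arrays with the Pcgf1 shRNA. Cx3cr1 passed the filter only through the control arrays, where it read higher. The sum of 8 granulocyte and monocyte progenitor markers overlapped, at 664 to 1130 with the Pcgf1 shRNA and 688 to 938 with the control shRNA, and of these Gfi1 (0.79, adjusted p 0.0326) and Cebpa (0.70, adjusted p 0.0212) rose in the mouse-blocked fit. Their part in the rise of Cd34 and Zfp521 was not tested.

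Other genes of the same cells moved in both directions. Of 16 further surface markers 15 were measured and 0 passed without a block. In the mouse-blocked fit Thy1, a glycoprotein that is low on mouse stem cells, rose (log2 change 0.88, adjusted p 0.0233). Cd27, a receptor of the TNF receptor family, rose as well (1.29, adjusted p 0.0342), while Ly6a, which encodes SCA-1, fell by 0.68 (adjusted p 0.0285). Without the block the SE was 0.24 for Thy1, 0.39 for Cd27 and 0.22 for Ly6a. The stem cell factor receptor gene Kit stood at −0.17 (adjusted p 0.536, 0.318 in the mouse-blocked fit), lower in 4 of 4 mice. The other surface genes with the smallest p were Cd9 (−0.64, adjusted p 0.348), Itga6 (0.38, 0.407) and Eng (−0.25, 0.489). Thus the SCA-1 transcript went against Cd34, and the 15 genes had a median log2 change of −0.03, against 0.01 over all 11743 genes with a symbol.

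Among 18 further transcription factor genes of these cells 16 were measured. Hoxa9, a homeobox gene of early progenitors, rose (log2 change 1.45, SE 0.21, adjusted p 0.0287), and 15 did not pass without a block. In the mouse-blocked fit the homeobox genes Nkx2-3 (1.13, adjusted p 0.0504 without and 0.0167 with the block) and Meis1 (0.79, 0.297 and 0.0318) rose as well, MEIS1 being a partner of HOXA9. Gfi1b, a transcriptional repressor gene active in erythroid and megakaryocytic cells, fell by 0.78 in that fit (adjusted p 0.532 without and 0.0425 with the block). The SE without the block was 0.20 for Nkx2-3, 0.28 for Meis1 and 0.43 for Gfi1b. Erg (0.83, adjusted p 0.245), Myb (0.30, 0.249) and Fli1 (0.23, 0.387) did not pass in either fit. Erg was well above background on 3 of 4 control arrays. It passed the filter only through the arrays with the Pcgf1 shRNA, where it read higher. The median of the 16 genes, Erg included, was 0.24. The list was drawn up with results of these arrays known and is not independent evidence of a direction.

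Of 12 further genes of stem cell signatures 8 were measured and 0 passed in either fit. Their median log2 change was −0.39, with 2 higher and 6 lower, and the smallest p values were those of the transglutaminase gene Tgm2 (−1.21, SE 0.34, adjusted p 0.184), Apoe (−0.76, adjusted p 0.401) and Pdzk1ip1 (−0.53, adjusted p 0.502). Relatives and partners of the 10 markers were also followed. Of 20 such genes 15 were measured, and 0 passed without a block. In the mouse-blocked fit Tie1, the TIE2 co-receptor, rose (0.36, SE 0.49 without the block, adjusted p 0.0489), and the SLAM family genes Slamf6 (−1.37, adjusted p 0.0351) and Ly9 (−0.49, adjusted p 0.0485) fell. Slamf6 was well above background on 3 of 4 arrays with the Pcgf1 shRNA and passed the filter only through the control arrays. Slamf7 stood at −1.42 (adjusted p 0.332, 0.103 with the block), and the PAR bZIP genes Dbp and Tef, relatives of Hlf, at −0.38 and −0.13 (adjusted p 0.260 and 0.588).

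**Figure D5:**
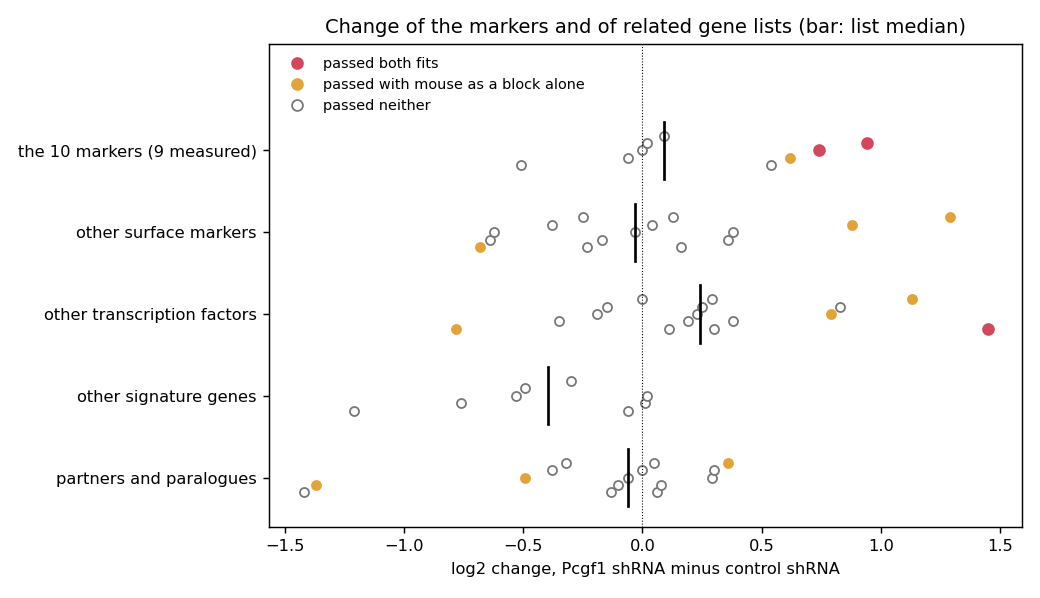
Log2 change, Pcgf1 shRNA minus control shRNA (x axis), of each measured gene of the markers and of 4 related lists (rows); the black bar is the median of a list. Filled red symbols passed both limma fits and orange symbols passed with mouse as a block alone; the medians are 0.09 for the markers and −0.03, 0.24, −0.39 and −0.06 for the lists below them.

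The genes whose pattern over the 8 arrays was most like that of a marker were also listed, for 5 markers above background throughout. Likeness was Pearson's r of the log2 signals over 8 arrays of 4 mice, given as a description, since the arrays share mice and groups. Cd34 was most like Setd7 (0.990) and Nhsl1 (0.988), Zfp521 most like Kctd1 (0.985) and Fam189b (0.980), and Ctnnal1 most like Espl1 (0.982) and Ank (0.977). Slamf1 was closest to Trpc6 (0.996) and Fam131a (0.994), and Procr to Icam1 (0.985) and Hgs (0.983).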

How the data were processed

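Total RNA of 8 cultures (400 ng each) was labelled with Cy3 and hybridised to one-colour Agilent arrays, 4 per slide. Per the file headers, each deposited scanner file gives a processed intensity per spot after background subtraction and spatial detrending, not normalized between arrays, beside raw median spot and background intensities; the submitters' processing notes name Agilent Feature Extraction 10.1. The authors also deposited a table of log2 values. Over 14807 bright probes its differences between columns followed the spot files (lowest r 0.9999, slopes 0.9965 to 1), so scale and direction were as in the spot files, and every probe had a median of 0 over the columns; the column medians were 0.10, −0.052, −0.11 and −0.20 with the Pcgf1 shRNA and 0.052, 0.11, 0.098 and −0.13 with the control shRNA (mice 1 to 4). The table served as an alternative.

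Processed intensities were taken to log2 after division by the 75th percentile over 43379 non-control spots per array. Non-uniform spots (13 to 53 per array) were left out, and 0 spots were saturated. Of 41174 probes 24375 were named through their RefSeq accession (GRCm38.p6) and 22747 passed the filter (above background throughout either group). The brightest probe stood for a gene. Probes without a symbol were tested under their own accession and are counted as genes. The hairpins were compared by limma 3.58.1 under R 4.3.3 (two-sided, Benjamini-Hochberg over 17301 genes), a procedure tested on simulated data. For Pcgf1 an exact two-sided permutation test of 4 against 4 arrays, which sets the pairing aside, gave p = 0.0286, and 1 within the 4 mice gave p = 0.125, each the smallest its design allows. Mouse numbers pair the cultures of 1 animal: after subtraction of group means, r across genes between its arrays was 0.439, 0.481, 0.407 and 0.642, each above any r with another mouse. Alternatives covered the block, slide, normalization, background, filter, probes, weights, value table and each mouse left out. Genes named were all 10 markers, Pcgf1, members of related lists that passed either fit with the 3 next smallest p of a list, and the 2 most alike genes of each marker above background on all arrays (those of Hlf and Prdm16 are not reported here); Kit and the genes of cell type lists were named after their values were seen. The markers and lists were chosen with earlier results of these data known.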

Additional observations from a re-analysis of the deposited data

Results flagged for a closer look

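In 2 of 20 groups of 4 arrays examined (10 genes, 2 groups each), 1 array lay far from the other 3 by Dixon's criterion, which chance meets in about 1 of 20 groups. Both were the control culture of mouse 4. Its Slamf1 log2 signal was 0.16, against −1.34 to −1.18 in the control cultures of the other mice. Its Procr signal was 0.14, against 1.29 to 1.46 in the others. The culture of the same mouse with the Pcgf1 shRNA lay on the same side for both genes, at 0.68 for Slamf1 and 0.02 for Procr, without meeting the criterion.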

How the results depend on the processing

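The number of genes called depended on the fit. Without a block 132 genes passed (103 higher and 29 lower), with mouse as a replicate block 921 (503 and 418), with normexp background correction 77 (52 and 25), with array weights 1652 (962 and 690) and without a filter on dim probes 0 of 32969 (2199 at an unadjusted p under 0.05). Leaving out 1 mouse gave 0 to 363 genes, and with the replicate block too 284, 0, 306 and 145 for mice 1 to 4. Among the markers 2 passed; the count was 1 with normexp, 0 without the filter, 3 with array weights, where Ctnnal1 passed without a block (adjusted p 0.0151), and 0 to 2 with 1 mouse left out. With the replicate block 3 passed; the block changed no call of a marker other than that of Ctnnal1. The Pcgf1 change was −1.36 without the filter, where its call was lost (adjusted p 0.104), and −1.38 to −1.34 with 1 mouse left out, where the call was lost without mouse 1, 2 or 3 (0.113, 0.352 and 0.0904) and, with the replicate block, without mouse 2 (0.0896). Those of Cd34 (0.94, adjusted p 0.117) and Zfp521 (0.74, 0.150) lost their calls without the filter too. The direction turned in these cases, all of changes that passed in no fit: Hlf with quantile normalization (0.01), Angpt1 with normexp (−0.09), Slamf1 with array weights (−0.15), Prdm16 with the authors' value table (−0.01), and, with 1 mouse left out, Hlf (−0.21 to 0.24), Prdm16 (−0.07 to 0.07, −0.04 without mouse 2), Slamf1 (−0.06 to 0.20) and Angpt1 (−0.20 to 0.14). Of 178 alternative values for the markers and Pcgf1, 144 kept direction and side of the threshold. The fits with a mouse left out and the block together were added after the data were seen. The causes of these shifts were not tested. Precision is limited by having 4 arrays a group, and Tek, Angpt1 and Mecom lay near the lowest signals called above background.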

Other observations

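The windows around the start sites of Mecom and Prdm16, which encode related PR domain zinc finger proteins, share an identical stretch. It was the longest run shared by any 2 of the 9 marker windows (24 bases, over 36 pairs; the next longest had 15), and of all 32851 windows in the table only these 2 hold it. It lies 27 to 50 bases after the upstream start of Mecom (chr3:30509710-30510009, minus strand), where the window ends, and is printed 5′ to 3′ with CpG dinucleotides in capitals.
Mecom and Prdm16: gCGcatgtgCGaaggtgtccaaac
In the Prdm16 window (chr4:154636824-154637123, minus strand) the stretch begins 10 bases after the start on which the window is placed, which lies inside the gene. What the shared letters do was not tested.

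Markers of mast cells and basophils were mixed, with 5 lower and 3 higher with the Pcgf1 shRNA. Of the 3, Mcpt8 (log2 change 0.59) and Hdc (0.25) had the largest changes, and 0 passed in either fit. Of 8 measured, the tryptase gene Tpsb2 fell (log2 change −1.71, adjusted p 0.0467), and in the mouse-blocked fit the chymase genes Mcpt4 (−1.27, adjusted p 0.0164) and Cma1 (−0.88, adjusted p 0.0212) fell as well. Their summed signal overlapped between the groups, at 36.6 to 50.9 with the Pcgf1 shRNA and 41.9 to 64.7 with the control shRNA.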
